A study of Mus musculus with 10 samples.

Results

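The genes described here encode the constant regions of mouse antibodies. The 10 genes were chosen by name: the heavy chain genes Ighm, Ighd, Ighg1, Ighg2b, Ighg2c, Ighg3 and Igha, and the light chain genes Igkc, Iglc1 and Iglc2. Of these, 8 were found among the 22548 genes of the count table, and Ighd and Iglc1 had no row under these names. The table held 234 immunoglobulin genes of any kind. All values come from RNA-seq of osteocytes, the cells embedded in the bone matrix, released from bone pieces by repeated collagenase and EDTA digestion after the marrow had been removed. The mice were male C57BL/6 animals labelled as 8 weeks of age. The 5 No MM mice were controls, and the 5 MM mice carried Vk12598 cells, a murine myeloma line injected into the femur. Each group had 5 libraries, 1 per mouse, and the libraries are called by their group and number (No MM 1 to No MM 5, MM 6 to MM 10).

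An antibody is built from a pair of identical heavy chains and a pair of identical light chains. The constant region of the heavy chain sets the isotype, and a B cell starts with IgM (Ighm) and can switch to an IgG subclass (Ighg1, Ighg2b, Ighg2c, Ighg3) or to IgA (Igha) by joining the same variable region to another constant gene. The light chain is either kappa (Igkc) or lambda (Iglc1, Iglc2), and kappa predominates in mice. Plasma cells, from which myeloma arises, transcribe a single heavy and a single light chain gene very strongly. B cells use constant genes too, so these reads in a bone sample cannot be assigned to antibody-secreting cells alone.

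The 4 IgG genes are close relatives, and the part in which they differ most plainly is the hinge, the short flexible stretch between the antigen-binding arms and the stem. The hinge exons are shown because the counts of the 4 subclasses depend on reads that can tell these genes apart. They were read from GENCODE M21 on GRCm38, minus strand, and capitals mark the in-frame cysteine codons. Disulfide bonds between hinge cysteines join both heavy chains, and which of the marked codons take part was not examined.
Ighg1 hinge, chr12:113329844-113329882: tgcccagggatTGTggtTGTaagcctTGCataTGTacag
Ighg2b hinge, chr12:113307261-113307326: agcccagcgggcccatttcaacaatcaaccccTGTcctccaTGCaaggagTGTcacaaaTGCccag
Ighg2c hinge, chr12:113288263-113288325: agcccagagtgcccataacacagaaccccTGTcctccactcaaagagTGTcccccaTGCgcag
Ighg3 hinge, chr12:113360529-113360576: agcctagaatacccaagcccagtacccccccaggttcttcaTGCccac

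The hinge exon was 39 bases long in Ighg1, 66 in Ighg2b, 63 in Ighg2c and 48 in Ighg3, with 4, 4, 3 and 1 cysteine codons. Over the coding sequence of the secreted forms, Ighg2b and Ighg2c were identical at 85.9% of 1004 aligned bases, and the other IgG pairs at 75.3% to 77.4%. Reads were 76 bases long, and 4 of the 935 stretches of that length in Ighg2b (0.428%) also occurred in Ighg2c. No stretch of that length in Ighm, Ighg1, Ighg3, Igha or Igkc occurred in another annotated gene. The count of Ighg2c is therefore stated with that of Ighg2b beside it.

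The light chain genes are further apart. The last 60 coding bases of Igkc and Iglc2 are shown because they hold the cysteine that ties the light chain to the heavy chain, and because the kappa to lambda balance rests on telling these genes apart. Capitals again mark cysteine codons.
Igkc, chr6:70726695-70726754, plus strand: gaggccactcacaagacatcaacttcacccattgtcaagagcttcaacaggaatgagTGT
Iglc2, chr16:19198539-19198598, minus strand: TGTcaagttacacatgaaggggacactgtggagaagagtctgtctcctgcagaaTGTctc

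Igkc and Iglc2 were identical at 57.9% of 302 aligned bases. Iglc2 and Iglc3, a lambda gene with no row in the table, were identical at 96.5% of 314 aligned bases and shared 4 of the 531 stretches of read length in Iglc2 (0.753%).

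The deposited positions, which hold the GRCm38 gene models of these genes, place the 6 heavy chain genes on chromosome 12, minus strand: Ighm at 113418950 to 113422730, Ighg3 at 113359665 to 113361232, Ighg1 at 113328976 to 113330523, Ighg2b at 113306389 to 113307933, Ighg2c at 113285325 to 113288930 and Igha at 113258768 to 113260236. Read along the minus strand, the order is Ighm, Ighg3, Ighg1, Ighg2b, Ighg2c and Igha, the order in which the genes can be reached by switching. Igkc lies at chromosome 6, 70726435 to 70726757, plus strand, and Iglc2 at chromosome 16, 19198401 to 19200351, minus strand. The counted exons differed in kind. Ighg1, Ighg2b, Ighg3, Igha and Igkc were counted over the coding exons of 1 secreted form, with a gene length of 974, 1010, 992, 1034 and 323 bases. Ighm, with 1424 bases, came closest to a membrane form, of which 5 of 6 exons with 1421 bases lie inside the deposited span, and its counted exons are not settled. Ighg2c, with 1212 bases, also included the membrane exons, and Iglc2 had 606 bases in 2 exons. Shares are therefore given as reads and, where it changes the order, per length.

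Between 31099174 and 39466332 reads were counted per library, so a count of 3 reads stood for 0.0709 to 0.114 CPM (read counts relative to library size, after TMM scaling). No MM 3 and No MM 4 stood apart from the other 8 libraries in the amount of constant-region reads. Constant-region reads made up 18.4% and 20.0% of all reads in these 2 control libraries, and 0.458% to 2.97% in the others. The summed level of 8 plasma cell markers was 9363 and 9397 CPM there, against 592 to 1284 CPM elsewhere. The 7 B cell markers summed to 20.9 and 17.0 CPM, against 98.5 to 312 CPM elsewhere. The 6 osteocyte markers summed to 422 and 308 CPM in No MM 3 and No MM 4, against 382 to 2417 CPM elsewhere. No MM 4 thus had the lowest osteocyte sum of all libraries. By group, the osteocyte sums were 308 to 2417 CPM in No MM and 382 to 1703 CPM in MM libraries. The 5 T cell markers summed to 17.6 and 24.8 CPM in No MM 3 and No MM 4, below every other library. By group, the T cell sums were 17.6 to 61.6 CPM in No MM and 32.3 to 64.3 CPM in MM libraries. No marker of these lists was at 0 in any library. Fold changes, shares and counts of calls are therefore given with these libraries, which keep their control label, and without them. The 2 libraries were set apart by the reads under study, so results without them are not independent of those values. In bulk RNA, fewer cells of a type and less RNA per cell cannot be told apart.

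Ighm, the constant gene of IgM and the first to be used by a B cell, was measured at 4403, 16220, 422, 129 and 2550 CPM in No MM 1 to No MM 5. In MM 6 to MM 10 it was measured at 2705, 2265, 3273, 4147 and 2834 CPM. The MM libraries lay within a narrow band, and the No MM libraries reached both above and below it.

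Ighg2b, an IgG subclass that binds complement and Fc receptors well, was measured at 6491, 697, 142363, 169409 and 209 CPM in the No MM libraries. The MM libraries held 360, 1806, 364, 1711 and 2077 CPM. No MM 3 and No MM 4 were far above all others, No MM 1 came next, and No MM 5 was the lowest of the 10.

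Ighg2c, the form of IgG2a that the C57BL/6 strain carries, was measured at 348, 1077, 2548, 2691 and 70.3 CPM in the No MM libraries. In the MM libraries Ighg2c stood at 236, 628, 63.3, 69.5 and 72.2 CPM. No MM 3 and No MM 4 were again highest, and No MM 5 lay among the 3 lowest MM libraries. Per 100 reads of Ighg2b, however, Ighg2c had only 1.79 and 1.59 reads in No MM 3 and No MM 4, against 3.48 to 154 in the other 8 libraries.

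Ighg1, which in mice is the usual IgG of responses driven by Il4, was measured at 135, 633, 21.2, 0.109 and 47.4 CPM in the No MM libraries. The lowest of these, in No MM 4, was 3 reads. The MM libraries held 108, 356, 77.6, 23.8 and 8.12 CPM. No MM 2 and MM 7 were the highest of their groups, and the groups overlapped over most of their range.

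Ighg3, a subclass typical of responses to carbohydrate antigens, was measured at 98.6, 56.4, 2.39, 0.617 and 2.13 CPM in the No MM libraries. Values in MM libraries were 160, 1.19, 82.1, 5.26 and 3.72 CPM. In each group 2 libraries were above 50 CPM and 3 were below 6 CPM.

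Igha, the constant gene of IgA, the antibody of mucosal secretions, was measured at 816, 845, 136, 116 and 245 CPM in the No MM libraries. In MM 6 to MM 10, Igha stood at 1171, 3123, 837, 1034 and 821 CPM. All 5 MM libraries were above 4 of the No MM libraries, and only No MM 2, at 845 CPM, reached into the range of the MM group.

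Igkc, the kappa light chain constant gene, was measured at 9445, 9491, 88357, 103067 and 959 CPM in the No MM libraries. The MM libraries held 2699, 5256, 2453, 4723 and 3327 CPM. The order of the No MM libraries spanned both sides of the MM group, with No MM 5 below it and the other 4 above it.

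Iglc2, a lambda light chain constant gene, was measured at 38.3, 82.0, 1022, 1470 and 26.7 CPM in the No MM libraries. The MM libraries held 38.2, 74.0, 27.9, 73.8 and 75.8 CPM. Outside No MM 3 and No MM 4, all values lay between 26.7 and 82.0 CPM.

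**Figure D1:**
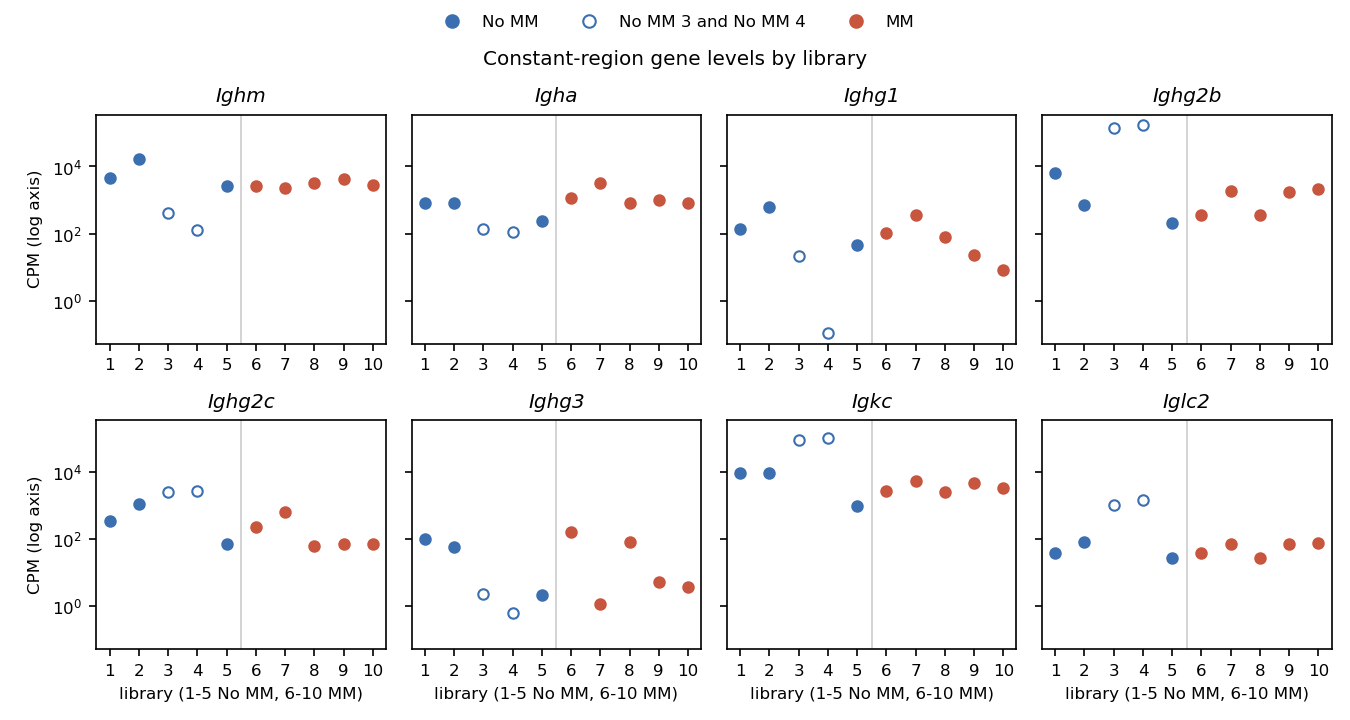
CPM of the 8 constant-region genes (log axis) in each library, 1 panel per gene, with No MM libraries 1 to 5 in blue and MM libraries 6 to 10 in red; open circles are No MM 3 and No MM 4. Those 2 libraries are highest for Ighg2b, Ighg2c, Igkc and Iglc2 and lowest for Ighm and Igha, and Ighg2b reaches 169409 CPM in No MM 4.

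The first comparison asked whether the levels of the constant-region genes differed between osteocytes of myeloma-bearing and control mice. With edgeR, 0 of the 8 members reached an adjusted p-value under 0.05, and the share over all 16186 genes tested was 0% in both directions. At an unadjusted p-value under 0.05, 4 members were lower in MM (Ighg2b, Ighg2c, Igkc and Iglc2), against 10.3% of all genes, and 1 was higher (Igha), against 3.81% of all genes. The median log2 fold change of all tested genes was -0.03.

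Ighg2b had a log2 fold change of -5.66 ± 1.75 (SE, n = 5 per group), with an edgeR adjusted p-value of 0.315. The values for Igkc were -3.52 ± 1.10 and for Iglc2 -3.19 ± 1.06, with the same edgeR adjusted p-value of 0.315. Ighg2c had -2.66 ± 0.982, also at 0.315. Exact permutation tests of the log2 CPM of each gene, two-sided and over every assignment of the libraries to groups of 5, gave p = 0.222 for Ighg2b, 0.159 for Igkc, 0.278 for Iglc2 and 0.0794 for Ighg2c. DESeq2 called Ighg2b (adjusted p = 0.00393), Igkc (adjusted p = 0.0167) and Iglc2 (adjusted p = 0.0445) lower in MM, against 0.856% of all genes, and none higher, against 0.143%. Each of these differences moved by over 1.5 times without No MM 3 and No MM 4: the log2 fold change was then -1.002 for Ighg2b, -0.87 for Igkc, -1.24 for Ighg2c and, with the sign turned, 0.22 for Iglc2. DESeq2 without these libraries called 0 of the 8, against 0.00891% of all genes higher and 0.00891% lower. The plasma cell markers moved with them. With edgeR, all 8 were lower in MM at an unadjusted p-value under 0.05 with all libraries, against 10.3% of all genes. Without No MM 3 and No MM 4, 1 (Mzb1) was lower, against 3.37% of all genes. The part of the plasma cell markers in the result was not tested.

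Igha had a log2 fold change of 1.70 ± 0.649 (SE, n = 5 per group), with an edgeR adjusted p-value of 0.315. The exact permutation test of its log2 CPM gave p = 0.0317, before any adjustment for the 8 genes. Without No MM 3 and No MM 4 the log2 fold change was 1.11, with an edgeR adjusted p-value of 0.643, and DESeq2 with all libraries gave an adjusted p-value of 0.117. Ighm had -0.64 ± 0.958, Ighg1 -0.54 ± 1.38 and Ighg3 0.66 ± 1.48, with edgeR adjusted p-values of 0.780, 0.879 and 0.861. Without the 2 libraries Ighm had -1.36 ± 0.547, and was the 1 member lower at an unadjusted p-value under 0.05, against 3.37% of all genes, while 0 were higher, against 2.51%. Its edgeR adjusted p-value was 0.643. Leaving out No MM 2 alone turned Ighm to 0.67 and Ighg1 to 1.14, and leaving out MM 6 turned Ighg3 to -0.47. For none of the 8 genes were the groups apart in CPM, with or without No MM 3 and No MM 4, while 0.729% of all tested genes lay apart and higher in MM and 0.68% apart and lower. Without the 2 libraries these shares were 2.49% and 1.34%.

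Isotype shares remove the total amount of immunoglobulin RNA from the comparison, but the share of an isotype also falls when another isotype is high. The second comparison asked whether the isotypes took different shares of the heavy constant reads in the 2 groups. Heavy constant reads numbered from 127502 in No MM 5 to 4748617 in No MM 4, so the counting error of a share was small beside the spread between mice.

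Ighm took 35.8%, 83.1%, 0.290%, 0.0746% and 81.6% of the heavy constant reads in the No MM libraries. In the MM libraries it took 57.1%, 27.7%, 69.7%, 59.3% and 48.7%. Ighm led in No MM 2, No MM 5, MM 6, MM 8, MM 9 and MM 10. Per length, Ighg2b led in MM 10 in its place, with 41.9%.

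Ighg2b took 52.8%, 3.57%, 97.8%, 98.3% and 6.69% in the No MM libraries. In the MM libraries it took 7.60%, 22.1%, 7.75%, 24.5% and 35.7%. It led in No MM 1, No MM 3 and No MM 4, and in No MM 3 and No MM 4 hardly any other isotype was seen. The inverse Simpson index, which counts isotypes weighted by their share, was 1.04 and 1.03 in these libraries and 1.43 to 3.58 in the other 8.

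Igha took 6.64%, 4.33%, 0.0934%, 0.0673% and 7.85% in the No MM libraries. In the MM libraries it took 24.7%, 38.2%, 17.8%, 14.8% and 14.1%. The lowest MM library, MM 10 (95% Wilson interval 14.0% to 14.3%), was above the highest No MM library, No MM 5 (7.70% to 7.99%), so the groups did not overlap. In MM 7 Igha was the leading isotype, ahead of Ighm.

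The remaining IgG subclasses took small shares. Ighg1 took at most 3.24% in No MM (No MM 2) and 4.36% in MM libraries (MM 7), and Ighg3 at most 0.802% (No MM 1) and 3.37% (MM 6). Ighg2c took 1.56% to 5.51% in No MM and 0.994% to 7.68% in MM libraries. All isotypes other than Ighm together, the switched share, came to 64.2%, 16.9%, 99.7%, 99.9% and 18.4% in No MM and 42.9%, 72.3%, 30.3%, 40.7% and 51.3% in MM libraries. The 5 MM values lay inside the range of the 5 No MM values.

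**Figure D2:**
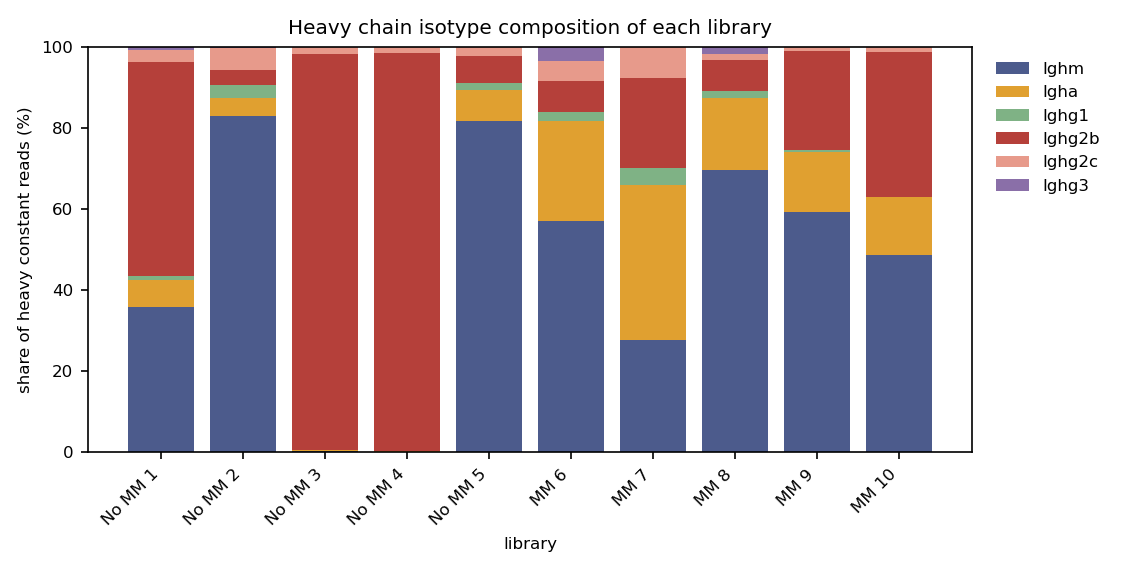
Share of heavy constant reads (%, vertical axis) taken by each of 6 isotypes in each library (horizontal axis), stacked to 100%. Ighg2b fills 97.8% and 98.3% of No MM 3 and No MM 4, and the Igha segment is larger in each MM library (14.1% to 38.2%) than in any No MM library (at most 7.85%).

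The Igha share averaged 3.79% ± 3.62 over the 5 control libraries and 21.9% ± 10.01 over the 5 MM libraries (SD, n = 5 each), a difference of 18.1 percentage points, and all 5 MM libraries were above all 5 No MM libraries. The two-sided exact permutation test gave p = 0.00794, the smallest value that 5 against 5 allows. Adjusted over the 7 shares tested, the exact permutation p was 0.0556, which did not pass 0.05. Given the p-values of the other shares, 5 against 5 allowed no lower adjusted value. This threshold therefore cannot decide whether the Igha share differed. Without No MM 3 and No MM 4, the No MM mean was 6.27% ± 1.79 (SD, n = 3) and the gap was 15.7 percentage points. The groups still did not overlap. The exact permutation p was 0.0357, the smallest that 3 against 5 allows, and 0.25 after adjustment, again the lowest adjusted value possible. Per length the share was 4.64% ± 4.46 in No MM and 25.3% ± 10.4 in MM libraries, again without overlap. In CPM the groups did overlap, through No MM 2 alone, with Igha at 845 there and at 837 and 821 in MM 8 and MM 10. No MM 1, at 816, lay just below the lowest MM library. The lower shares of No MM 1 and No MM 2 went with Ighg2b at 6491 CPM in No MM 1 and Ighm at 16220 CPM in No MM 2.

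The B cell markers overlapped between the groups in their sum, while the Igha shares did not. Their sum was 17.0 to 196 CPM in No MM and 108 to 312 CPM in MM libraries, 1 of 7 (Cd22) was higher in MM at an unadjusted p-value under 0.05 with and without No MM 3 and No MM 4 (against 3.81% and 2.51% of all genes), and their part in the result was not tested.

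The other 6 shares overlapped between the groups. The Ighg2b share was 51.8% ± 46.5 in No MM and 19.5% ± 11.98 in MM libraries (SD, n = 5 each; exact permutation p = 0.230). Without No MM 3 and No MM 4, the No MM mean was 21.0% ± 27.6 (SD, n = 3) and the difference was -1.50 percentage points. The Ighm share was 40.2% ± 41.2 in No MM and 52.5% ± 15.7 in MM libraries (SD, n = 5 each; exact permutation p = 0.516), a difference of 12.3 percentage points that turned to -14.3 without the 2 libraries. The exact permutation p was 0.548 for Ighg1, 0.786 for Ighg2c and 0.310 for Ighg3. Leaving out MM 7 alone turned the difference from 0.58 to -0.073 percentage points for Ighg1 and from 0.46 to -0.64 for Ighg2c.

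**Figure D3:**
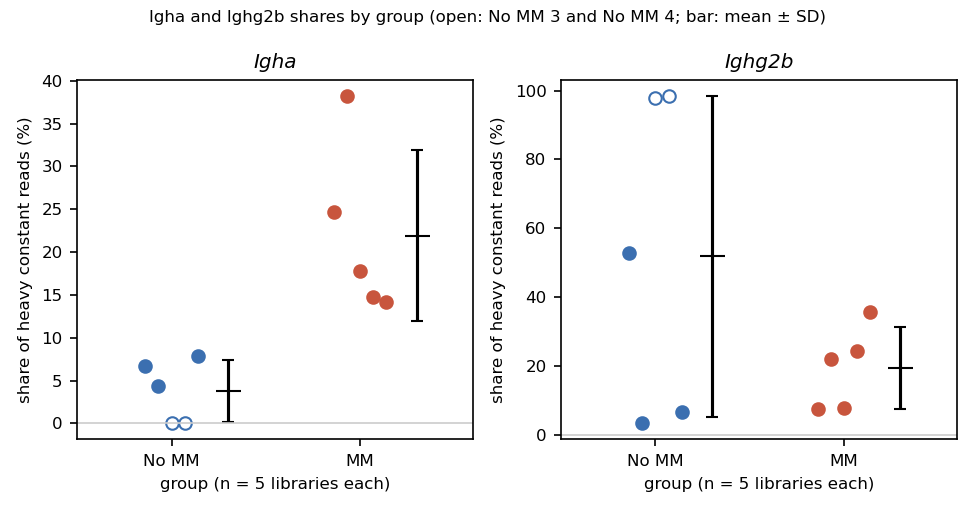
Share of heavy constant reads (%) of Igha (left) and Ighg2b (right) in the No MM and MM groups, 1 point per library, with No MM 3 and No MM 4 as open circles and the mean ± SD of 5 libraries beside each group. The Igha groups do not overlap (3.79% ± 3.62 against 21.9% ± 10.01), and the Ighg2b groups do, with No MM from 3.57% to 98.3%.

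The third comparison was the kappa to lambda balance. Igkc took 99.6%, 99.1%, 98.9%, 98.6% and 97.3% of the Igkc and Iglc2 reads in the No MM libraries. In the MM libraries it took 98.6%, 98.6%, 98.9%, 98.5% and 97.8%. The share was 98.7% ± 0.870 in No MM and 98.5% ± 0.415 in MM libraries (SD, n = 5 each), a difference of -0.23 percentage points that was smaller than the spread between libraries (exact permutation p = 0.603). Igkc outnumbered Iglc2 in every library, by 35.9 reads to 1 in No MM 5 and by up to 246 to 1 in No MM 1 (67.3 and 462 to 1 per length).

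This balance counts only part of the lambda chains, because Iglc1 had no row. The variable gene Iglv1 joins to the constant genes Iglc1 and Iglc3, and Iglv2 mainly to Iglc2. In No MM 5, Iglv1 had 23608 reads against 1090 reads of Iglc2. Lambda genes took 47.9% of the light chain variable reads of that library, 0.0190% and 0.0288% in No MM 4 and No MM 3, and 2.29% to 5.29% in the other 7. In No MM 3 and No MM 4 the relation was the opposite: Iglc2 had 31619 and 40505 reads, and all lambda variable genes together had 650 and 475. Iglc2 reads in these 2 libraries thus stood without variable reads in like number.

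No MM 5 also stood out in the ratio of light to heavy constant reads. It had the lowest, with 0.315 light chain reads per heavy chain read, and the other 9 libraries had 0.490 to 0.772. Per length the ratio was 1.29 in No MM 5 and 1.89 to 2.71 elsewhere. Light reads here are those of Igkc and Iglc2 alone, since Iglc1 and Iglc3 had no row. Lambda genes took 47.9% of the light chain variable reads of No MM 5. The part of uncounted lambda constant reads in its low ratio was not tested.

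**Figure D4:**
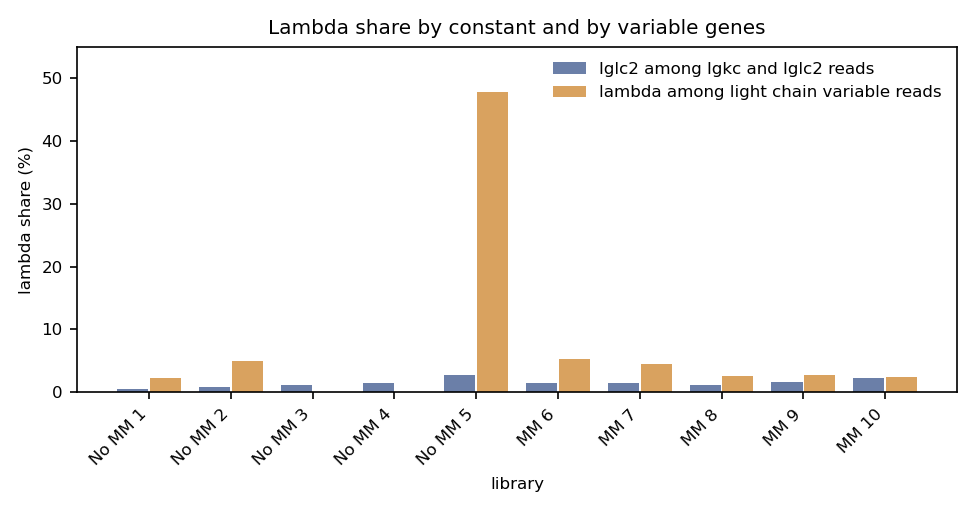
Lambda share (%, vertical axis) in each library (horizontal axis), as Iglc2 among Igkc and Iglc2 reads (blue-grey bars) and as lambda genes among all light chain variable reads (ochre bars). Both are low in most libraries, and in No MM 5 the variable reads give 47.9% where the constant reads give 2.71%.

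In No MM 3 and No MM 4 the constant and variable reads each came down to single genes. Igkv4-91 and Ighv1-15, named here after their values were seen, took 99.6% and 99.8% of the kappa variable reads and 99.1% and 99.3% of the heavy variable reads in No MM 3 and No MM 4. With Ighg2b and Igkc, this is 1 heavy and 1 light chain gene pair in both libraries. Igkc reads per Ighg2b read were also alike, at 0.621 and 0.608, and 1.46 to 13.6 elsewhere. The same variable genes took 28.2% and 47.7% of kappa and 33.6% and 44.1% of heavy variable reads in MM 9 and MM 10. These were the MM libraries with the largest Ighg2b shares, 24.5% and 35.7%. In the remaining 6 libraries Igkv4-91 took at most 8.25% and Ighv1-15 at most 3.08%. No MM 1, with an Ighg2b share of 52.8%, had 0.375% and 0.460%, so its Ighg2b reads came with other variable genes. Read counts per gene do not join a variable to a constant region, and the pairing within transcripts was not tested.

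**Figure D5:**
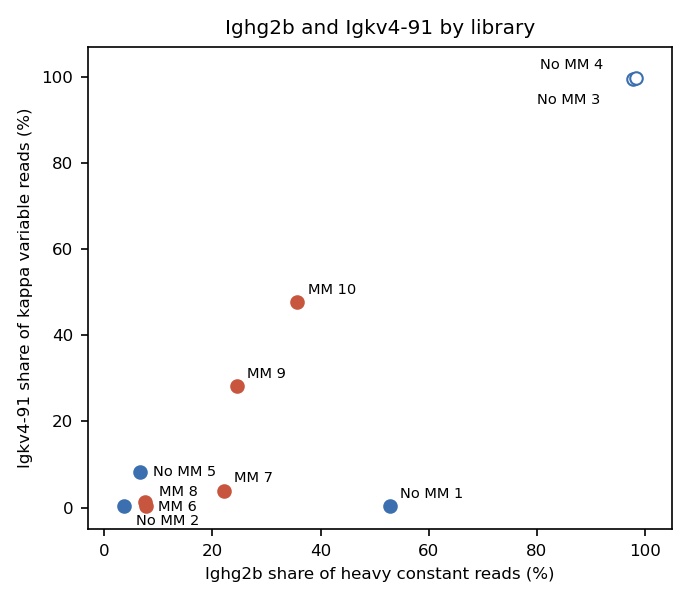
Ighg2b share of heavy constant reads (%, horizontal axis) against Igkv4-91 share of kappa variable reads (%, vertical axis), 1 point per library, No MM in blue (No MM 3 and No MM 4 open) and MM in red. No MM 3 and No MM 4 lie near 100% on both axes, MM 9 and MM 10 lie between, and No MM 1 has 52.8% Ighg2b with 0.375% Igkv4-91.

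Among themselves, the genes fell into patterns set largely by No MM 3 and No MM 4. Over the 10 libraries, the log2 CPM of Ighg2b had a Pearson r of 0.95 with Igkc and 0.92 with Iglc2, and Ighm had -0.79 with Ighg2b. Over the 8 libraries without these 2, the same values were 0.74, 0.50 and 0.08. Ighg1 and Ighg2c had -0.21 over 10 libraries and 0.88 over 8. All values are descriptions across libraries that share depth and cell makeup.

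Outside the immunoglobulin genes, the 3 genes most like each member over the 10 libraries were ranked by Pearson r of log2 CPM. For Iglc2 they were Eaf2 (0.995, and 0.956 over the 8 libraries), Rec8 (0.991 and 0.898) and Lax1 (0.99 and 0.905). For Ighg2b they were Pml (0.987 and 0.941), Capn5 (0.983 and 0.904) and Rbm15b (0.978 and 0.887). For Igkc they were Siae (0.985 and 0.941), Crb3 (0.977 and 0.896) and Pld3 (0.977 and 0.885). Ighg2c was closest to Synrg (0.95 and 0.885), As3mt (0.931 and 0.908) and Slc16a5 (0.927 and 0.887). These 4 constant genes are those that were highest in No MM 3 and No MM 4.

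Ighm was closest to Nptn (0.95 and 0.680), Cd209d (0.944 and 0.836) and 4930577N17Rik (0.941 and 0.596). Igha was closest to H2-Oa, a chain of a class II antigen presentation regulator of B cells (0.946 and 0.921), Il2rb, a chain of the Il2 receptor (0.939 and 0.830), and Gimap7 (0.936 and 0.886). Ighg1 was closest to Rpl22l1 (0.932 and 0.750), Extl3 (0.915 and 0.753) and Gm13056 (0.911 and 0.693). Ighg3 was closest to P2ry2 (0.901 and 0.866), Serpinb6a (0.898 and 0.885) and Sulf1 (0.892 and 0.847). For the sum of all constant-region genes the closest were Siae (0.986 and 0.914), Crb3 (0.985 and 0.908) and Slc16a5 (0.984 and 0.919). Igha was most like Jchain, listed under the older symbol Igj, when only the 8 libraries were taken (0.928, against -0.58 over 10).

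Genes that serve the constant regions were examined as lists. The partners of immunoglobulin chains (10 genes, all tested) include Jchain, which links IgM and IgA into polymers, the B cell receptor subunits Cd79a and Cd79b, the surrogate light chain genes Igll1 and Vpreb1 to Vpreb3, and Mzb1, Pou2af1 and Ell2, which serve immunoglobulin folding, transcription and secretory splicing. With edgeR, 0 passed the adjusted threshold, and 4 were lower and 0 higher in MM at an unadjusted p-value under 0.05, against 10.3% and 3.81% of all genes. Without No MM 3 and No MM 4, 1 was lower (Mzb1) and 0 were higher, against 3.37% and 2.51%. The median log2 fold change was -0.50, and -0.43 without No MM 3 and No MM 4.

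Jchain was measured at 463, 482, 5554, 5741 and 221 CPM in No MM and 504, 875, 354, 643 and 530 CPM in MM libraries. No MM 3 and No MM 4 were far above all others, and the remaining 8 overlapped. Pou2af1, a coactivator of octamer-binding factors at immunoglobulin promoters, was also highest in No MM 4 and No MM 3, with 66.2, 90.6, 1934, 2339 and 43.6 CPM in No MM and 31.5, 69.8, 38.2, 83.5 and 83.0 CPM in MM libraries. DESeq2 called it lower in MM (adjusted p = 0.0167), and its log2 fold change went from -3.87 to -0.14 without the 2 libraries.

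Mzb1, a chaperone of the endoplasmic reticulum that aids IgM assembly, had another pattern. It was measured at 87.6, 70.4, 62.9, 65.5 and 17.4 CPM in No MM and 22.7, 29.8, 21.5, 26.1 and 18.8 CPM in MM libraries. In No MM, 4 libraries were above all MM libraries, and No MM 5 was below them. The log2 fold change of Mzb1 was -1.35 ± 0.346 (SE, n = 5 per group; edgeR adjusted p = 0.315, DESeq2 adjusted p = 0.039), and -1.33 without No MM 3 and No MM 4. Ell2, an elongation factor that favours the secreted form of heavy chain mRNA, had a log2 fold change of -1.22 ± 0.462 (edgeR adjusted p = 0.315), and -0.08 without these libraries.

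The B cell receptor subunits went separate ways in No MM 3 and No MM 4. Cd79a was measured at 84.2, 96.3, 2.97, 2.00 and 53.3 CPM in No MM and 59.7, 55.7, 44.6, 100.5 and 78.9 CPM in MM libraries. Cd79b was measured at 102, 115, 166, 213 and 65.2 CPM in No MM and 62.4, 60.9, 77.9, 123 and 93.6 CPM in MM libraries. Those 2 libraries were lowest for Cd79a and highest for Cd79b. The log2 fold changes were 0.51 ± 0.851 and -0.66 ± 0.317, with edgeR adjusted p-values of 0.806 and 0.375, and without No MM 3 and No MM 4 they were -0.22 and -0.19. The surrogate light chain genes Igll1, Vpreb1, Vpreb2 and Vpreb3, which mark precursor B cells, had 0.07 ± 1.09, 0.08 ± 1.02, -0.34 ± 1.04 and -0.09 ± 0.840. Without these libraries they had -0.67, -0.65, -1.09 and -0.81, with the sign turned for Igll1 and Vpreb1, and 0 of the 4 had an unadjusted p-value under 0.05.

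The class switch list (20 genes, all tested) holds mismatch repair, base excision and end joining factors that act in switching. With edgeR, 0 passed the adjusted threshold, and 5 were lower and 0 higher in MM at an unadjusted p-value under 0.05, against 10.3% and 3.81% of all genes. Xrcc5, a Ku subunit of DNA end joining, had a log2 fold change of -0.83 ± 0.237, Apex1, an abasic site nuclease, -0.61 ± 0.195, and Ung, a uracil glycosylase, -0.79 ± 0.315. Without No MM 3 and No MM 4 these values were -0.51, -0.52 and -0.36. At an unadjusted p-value under 0.05, 2 genes were then lower (Xrcc5 and Apex1), against 3.37% of all genes. The 1 gene higher, against 2.51% of all genes, was Dclre1c, an end processing nuclease named after its values were seen, at 0.90. The median was -0.19, and 0.00 without No MM 3 and No MM 4.

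The switch signals (18 genes, 16 tested) are the cytokines and receptors that direct switching, among them Il4 for IgG1, Ifng for IgG2c and Tgfb1 for IgA and IgG2b. With edgeR, 0 passed the adjusted threshold, 1 was higher and 1 was lower in MM at an unadjusted p-value under 0.05, against 3.81% and 10.3% of all genes. The counts were 1 and 0 without No MM 3 and No MM 4, against 2.51% and 3.37% of all genes. Il21r, the Il21 receptor, had a log2 fold change of 1.05 ± 0.306, with 9.37 to 23.5 CPM in No MM and 22.0 to 54.7 CPM in MM libraries. The log2 fold change was 0.78 without No MM 3 and No MM 4. Tnfrsf13b, a receptor for the survival factors of plasma cells, had -1.15 ± 0.468, and 0.03 without No MM 3 and No MM 4. Tgfb1 had a log2 fold change of 0.04 ± 0.251, or -0.28 without these 2 libraries, at 154 CPM in No MM and 158 CPM in MM libraries on average over all libraries. Il4 was at 0.129 to 1.03 CPM in No MM and 0.284 to 2.46 CPM in MM libraries, highest in MM 7.

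The immunoglobulin receptors (11 genes, 10 tested) bind the constant regions on other cells. With edgeR, 0 passed the adjusted threshold, and 1 was higher and 0 lower in MM at an unadjusted p-value under 0.05, against 3.81% and 10.3% of all genes. That gene was Trim21, a cytosolic receptor for antibody constant regions, with a log2 fold change of 0.61 ± 0.216 and 0.43 without No MM 3 and No MM 4, where 0 receptors had an unadjusted p-value under 0.05 in either direction. Pigr, the receptor that carries polymeric IgA and IgM across epithelium, was counted at 3 to 15 reads in No MM and 4 to 9 reads in MM libraries and was not tested. Ighe, the constant gene of IgE, was counted at 7, 31, 99, 71 and 2 reads in No MM and 30, 16, 10, 40 and 4 reads in MM libraries, with a log2 fold change of -1.39 ± 0.923 (edgeR adjusted p = 0.496) that turned to 0.39 without No MM 3 and No MM 4.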

How the data were processed

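The 10 osteocyte RNA-seq libraries were grouped by their labels into No MM and MM, 5 each. Libraries were stranded total RNA with 76-base paired reads, and the submitters' processing notes name STAR and FastQC 0.11.5; the counter, build and annotation are not given in the sources used here. The authors deposited whole-number read counts per gene, which were used. They also deposited a normalized signal (counts divided by 1 size factor per library), FPKM values, a gene length, and columns of their own comparison (log2 fold changes, p-values). These other columns were not used, apart from gene length.

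The members, lists and tests were chosen with earlier results of these data known. Counts were tested in R 4.3.3 with edgeR 4.0.16 (filterByExpr, TMM, quasi-likelihood test, Benjamini-Hochberg adjustment over 16186 genes); DESeq2 1.42.0 was an alternative, and both were tested on simulated data. Calls were made at adjusted p-values under 0.05. Of 8 shares planned, 7 could be formed (6 heavy shares and Igkc among Igkc and Iglc2), since Ighd and Iglc1 had no row. Shares were compared by two-sided exact permutation tests over libraries (SciPy 1.17.1) and carry 95% Wilson intervals, which, like the 3-count floor, cover counting error only. Named genes were all 10 members, Ighe, all immunoglobulin partners and, from each other list, up to 3 genes per direction with the smallest unadjusted p-value under 0.05. Tgfb1, Il4, Pigr, Dclre1c and Fcgr4 were added after their values were seen. The 3 genes most alike were named for each member. A gene of the class switch list is counted in the list and not reported here. Sequences and identities came from GENCODE M21 (GRCm38), in which 68.4% of 22284 matched genes had the deposited position; the printed exons lie inside the deposited spans. Alternatives covered scaling, filters, gene length, a logit scale, Ighe in the denominator, each library left out in turn and No MM 3 with No MM 4 left out. DESeq2 without these 2 libraries was added after seeing the data.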

Additional observations from a re-analysis of the deposited data

Results flagged for a closer look

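In groups of 5 libraries, a value was marked when its gap to the nearest other library exceeded 0.71 of the group's range (Dixon's 95% limit). Of 38 sets of 5 values (the CPM of 8 genes and 11 shares and ratios, in 2 groups), 4 were marked. Chance would mark about 1.9 if values were normally distributed and the sets independent. Neither condition was tested, so the 2 numbers cannot be weighed against each other.

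Ighm in No MM 2 was 16220 CPM, and the next highest No MM library had 4403 CPM. Ighg1 in the same library was 633 CPM, and the next had 135 CPM. Without No MM 2, the log2 fold changes of Ighm and Ighg1 changed sign, to 0.67 and 1.14. Ighg1 in MM 7 was 356 CPM, and the next MM library had 108 CPM. Igha in MM 7 was 3123 CPM, and the next MM library had 1171 CPM. Without MM 7, the difference in Igha share was 14.1 percentage points.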

How the results depend on the processing

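No paired analysis was possible because replicate numbers 1 to 5 are No MM and 6 to 10 are MM. With edgeR, 0 members were called under any scaling, filter or library left out. DESeq2 called 3 members and 2 immunoglobulin partners lower in MM, against 0.856% of all genes, and DESeq2 without No MM 3 and No MM 4 called 0. At an unadjusted p-value under 0.05, 4 members were lower and 1 higher, as were 4 partners (lower), 5 class switch genes (lower), 1 switch signal in each direction and 1 receptor (higher). Over all genes tested with edgeR, 10.3% were lower and 3.81% higher at that threshold. Without No MM 3 and No MM 4, the share differences of Ighm, Ighg1 and Ighg2c turned to -14.3, -0.20 and -0.29 percentage points, and the log2 fold changes of Ighg3 and Iglc2 to -0.088 and 0.22 (DESeq2: -0.065 and 0.24). On the logit scale the Ighg2c difference turned to -0.078. The cause was not tested. With each library left out in turn, the Igha share difference ran from 14.1 to 20.1 percentage points, Ighg2b from -44.4 to -20.7, Ighm from 2.30 to 23.0, Ighg1 from -0.073 to 1.10, Ighg2c from -0.64 to 1.15, Ighg3 from 0.24 to 1.08 and Igkc from -0.58 to -0.01. Over the same fits, the log2 fold change of Ighm ran from -0.95 to 0.67, Ighg1 from -1.62 to 1.14 and Ighg3 from -0.47 to 1.71, and those of the other 5 members kept their sign. The exact permutation p of the Igha share, adjusted over 7 shares, ran from 0.0556 to 0.25 over its alternatives. Each was the lowest adjusted value possible with that number of libraries, given the p-values of the other shares. Over all alternatives, adjusted p-values of edgeR or DESeq2 ran from 0.00393 to 0.869 for Ighg2b, 0.0167 to 0.818 for Igkc, 0.0445 to 0.962 for Iglc2, 0.0796 to 0.853 for Ighg2c and 0.117 to 0.790 for Igha. Ighg1 was not tested with at least 10 counts required in every library. Counting error is largest for Ighg1 in No MM 4 (3 reads), the lowest count of any member.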

Other observations

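Fcgr4, an activating receptor for IgG2 antibodies, was counted at 40234 reads in MM 8 and at 478 to 2938 reads in the other 9 libraries, and was named after its values were seen. Jchain had a log2 fold change of -2.10 with all libraries and 0.56 without No MM 3 and No MM 4.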
